A study of Mus musculus with 12 samples.

Results

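ILC1 and NK cells of the lean mouse liver were compared, library by library, to describe how the 2 cell types differed at steady state. The comparison rested on 6 of the 12 libraries of the series: 3 of ILC1 and 3 of NK cells, one of each from each of the lean mice numbered 25, 26 and 27. The members were chosen by their labels alone, and no expression value entered the choice. All 6 libraries came from C57BL/6 mice (C57BL/6J, bred in house) that were weaned onto the RM1 diet, a standard chow, and kept on it for 12 weeks; the mice were female, and no gene alteration or drug is given for them. From Lin- NK1.1+ leukocytes of the liver, cells with CD49b and without CD49a were sorted as NK cells and cells with CD49a and without CD49b as ILC1, and the lineage gate removed, among others, cells that stained for CD3, CD8α or Gr1. Each library started from 2 ng of RNA. The other 6 libraries came from 3 different mice that received an obesogenic diet (45% AFE fat plus condensed milk) for the same time, and are used only where stated.

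Both cell types belong to the group 1 innate lymphoid cells, which make interferon-γ and carry NK1.1 but no rearranged antigen receptor. NK cells circulate, need the transcription factor Eomes, and kill target cells with perforin and granzymes after a balance of activating and inhibitory receptors has been read. ILC1 stay in the tissue, are abundant in the liver sinusoids of mice, and are known by CD49a, CXCR6, CD200R1 and TRAIL.

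Of 5545 genes with complete rows, with symbols from the start of the alphabet to Cyp26b1, 2337 had enough counts to be tested. Symbols beyond it, such as those of the sort markers CD49a, CD49b and NK1.1 and of Eomes and TRAIL, were not analysed here. Levels are in CPM, read counts scaled to one common total over the genes analysed, after TMM scaling (a factor for each library that evens out its composition), and are given for mice 25, 26 and 27 in that order, with n = 3 in each group. They compare libraries and not genes, since they are not per length. To be called, a gene needed an adjusted p (Benjamini-Hochberg, over all genes tested, edgeR's quasi-likelihood test) under 0.05 and a fold change over 2. A log2 fold change is ILC1 minus NK throughout. In bulk RNA, more cells of a type and more RNA per cell cannot be told apart.

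Markers that could be read went with the labels, but their lists were chosen with earlier results of these data known, so this is no independent check. Cxcr6 held most of the ILC1 sum and Cma1 most of the NK sum, while Cd69 and Cx3cr1 were not called. The 4 ILC1 markers in the table (Cxcr6, Cd200r1, Cxcr3 and Cd69) summed to 16109 to 20340 CPM in the ILC1 libraries and 1377 to 1947 CPM in the NK libraries. The 2 NK markers in the table, Cma1 and Cx3cr1, summed to 53.7 to 347 CPM in ILC1 and 4232 to 6073 CPM in NK cells. Of other cells, the neutrophil list summed to 0 to 0.539 CPM, and the hepatocyte, endothelial, stellate and dendritic cell lists to at most 214 CPM in any library. The erythroid and platelet list reached 963 to 1222 CPM in ILC1 and 1434 to 1983 CPM in NK cells, nearly all of it Car2. Bank1, an adaptor of B cells, had 83, 113 and 458 counts in NK cells and 0, 15 and 0 in ILC1. Other B cell markers went the other way, among them Cd79a, with 22, 31 and 19 counts in ILC1 and 5, 7 and 0 in NK cells. T cell, macrophage and basophil lists stand beside the genes they touch. Totals were similar, 1779223 to 1903612 counts in ILC1 and 1845970 to 2136211 in NK cells over the genes analysed. The NK library of mouse 27 stood apart: it held counts for 1948 genes, against 2478 to 2841 in the other 5, and 428 of the 2217 genes (19.3%) with at least 10 counts in both other NK libraries were at 0 there, against 0.0617% to 3.55% for the same measure in the other libraries. Its log2 CPM correlated with the other NK libraries at r = 0.778 and 0.769 across genes, against 0.958 between those, while the ILC1 libraries correlated at 0.851 to 0.893. The part of this library in the results is given where it changed them.

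The test called 54 genes higher and 29 lower in ILC1, which together are 3.55% of the genes tested (2.31% higher and 1.24% lower). In all 83 the lowest library of the higher group lay above the highest library of the other, as it did in 630 of all genes tested (27.0%). The median log2 fold change over all tested genes was 0.04. With the mouse as a block, since both cell types came from the same animals, 25 of the 54 and 16 of the 29 stayed called and no further gene was added. Without NK library 27 the counts were 95 higher and 43 lower, and these held 53 of the 54 and all 29; Coro2a fell below the fold threshold. The fold changes called in favour of ILC1 were larger than those in favour of NK cells: the medians of the called genes were 3.39 and -1.83 on the log2 scale.

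**Figure D1:**
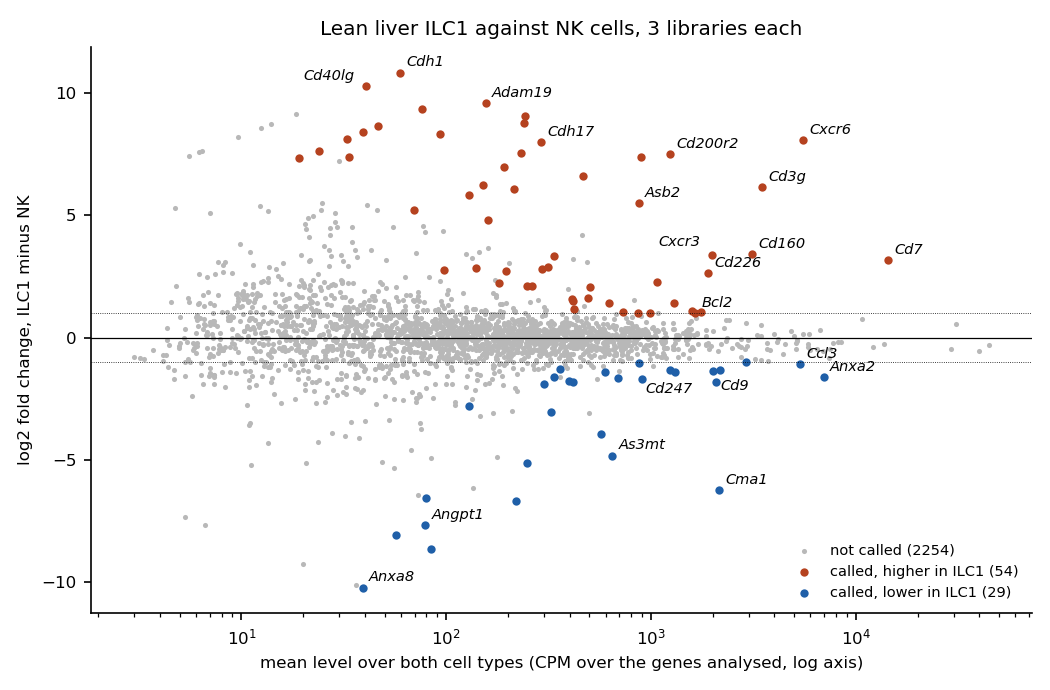
Each point is 1 of the 2337 genes tested in lean livers, with its mean level over both cell types on the x axis (CPM, log scale) and its log2 fold change, ILC1 minus NK, on the y axis. Red points are the 54 genes called higher and blue points the 29 called lower in ILC1, the dotted lines mark a fold change of 2, and values beyond about 7 on either side belong mostly to genes near 0 in one cell type, whose fitted change depends on a prior count.

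Chemokine receptors, which steer lymphocytes through tissue, separated the 2 cell types in 3 of 10 tested members, all higher in ILC1, against 2.31% of all genes. Cxcr6, the receptor for CXCL16 on sinusoidal endothelium (chr9:123806475-123811760, GRCm38), was at 11022, 9528 and 12564 CPM in ILC1 and 53.7, 39.9 and 29.9 CPM in NK cells. The ILC1 libraries lay more than 100-fold above the NK libraries in every mouse, with a log2 fold change of 8.06 (SE 0.28) and an adjusted p of 2.58e-05. Cxcr3, which binds the interferon-induced ligands CXCL9 and CXCL10, was at 3908, 3311 and 3656 CPM in ILC1 against 435, 471 and 131 CPM in NK cells. Every NK library held Cxcr3 reads, fewest in mouse 27, and the log2 fold change of 3.39 (SE 0.46, adjusted p = 0.00839) was the smaller of both; the call was lost without ILC1 library 25 (adjusted p = 0.0521). Ccr8, the receptor for CCL1, had 139, 138 and 244 counts in ILC1 and 1, 0 and 0 in NK cells, a ratio of 548-fold (95% interval 98.0 to 21698) with an adjusted p of 0.0131, or 0.107 with the mouse block.

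The other 7 tested receptors were not called. Cx3cr1, the fractalkine receptor of circulating cells, was at 834, 639 and 1210.3 CPM in NK cells and 60.1, 17.7 and 234 CPM in ILC1. The groups did not overlap, but the ILC1 libraries spread more than 10-fold among themselves, and the log2 fold change of -3.11 (SE 0.85) was not called (adjusted p = 0.112). Ccr2, the receptor that draws cells out of the bone marrow, was lower in ILC1 by less than the fold threshold, at -0.78 on the log2 scale (adjusted p = 0.0467, or 0.161 with the mouse block).

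Among 11 tested chemokine ligands 1 was called in each direction, against 3.55% of all genes called in either. Ccl1, the ligand of CCR8, had 199, 40 and 196 counts in ILC1 and 1, 0 and 0 in NK cells, a ratio of 458-fold (95% interval 81.7 to 18123, adjusted p = 0.0256, or 0.107 with the mouse block). The ligand and its receptor were thus counted almost only in the ILC1 libraries. Ccl3, an inflammatory chemokine that activated NK cells release, was at 6002, 8183 and 7564 CPM in NK cells and 3286, 3369.9 and 3677 CPM in ILC1, a log2 fold change of -1.07 (SE 0.14, adjusted p = 0.00827). Its relatives Ccl4 and Ccl5 were high in both cell types and not called: Ccl5 was at 46548, 38428 and 57025 CPM in NK cells and 29605, 32742 and 35727 CPM in ILC1 (adjusted p = 0.149), and Ccl4 had a log2 fold change of -0.28 (adjusted p = 0.356).

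**Figure D2:**
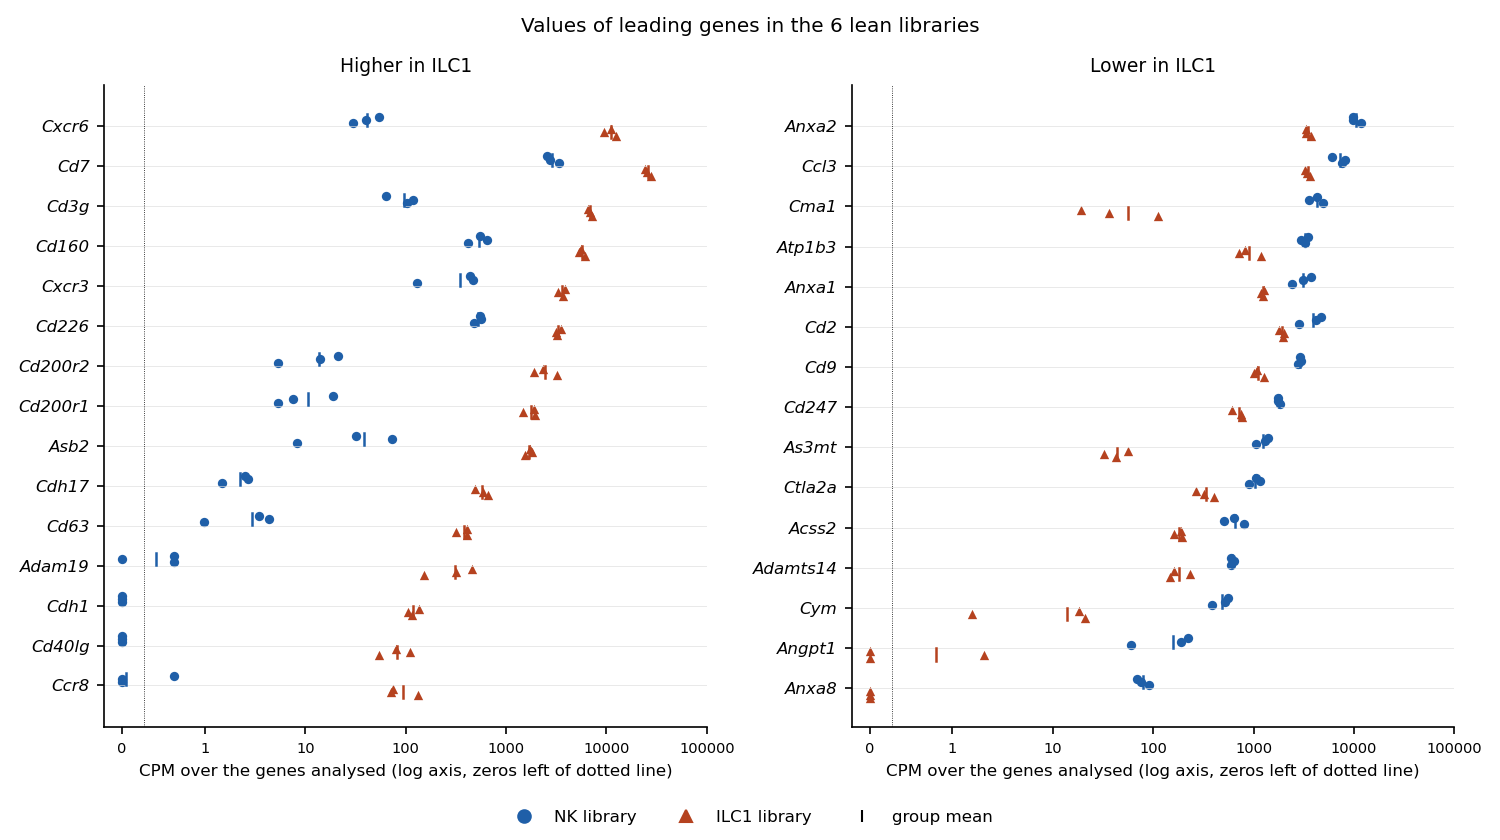
Points are the 6 lean libraries (circles NK, triangles ILC1) for 15 genes called higher and 15 called lower in ILC1, on a log axis of CPM over the genes analysed; bars are group means, and libraries at 0 are drawn left of the dotted line. In each gene the 3 triangles lie on one side of the 3 circles, and Cdh1 and Cd40lg are at 0 in every NK library as Anxa8 is in every ILC1 library.

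Inhibitory receptors, which hold back lymphocyte activation, were called higher in ILC1 in 4 of 14 tested members and lower in 1. The shares of all genes were 2.31% and 1.24%. The list median log2 fold change was 3.79, against 0.04 over all genes. The CD200 receptors, which bind CD200 on stromal and endothelial cells, stood out in level. Cd200r1 was at 1914, 1463 and 1935 CPM in ILC1 and 18.9, 7.54 and 5.4 CPM in NK cells (log2 fold change 7.37, SE 0.49, adjusted p = 3.07e-04). Its neighbour Cd200r2 was at 2313, 1905 and 3193 CPM in ILC1 and 21.4, 14.0 and 5.4 CPM in NK cells, a log2 fold change of 7.50 (SE 0.52, adjusted p = 3.42e-04). Both genes were near the bottom of the range in NK cells and stood apart in each mouse. The related Cd200r4 lies between them on chromosome 16 (chr16:44811733-44839150) and was at 1304, 1089.8 and 1947 CPM against 779, 687 and 667 CPM, a log2 fold change of 1.03 that was not called (adjusted p = 0.0602). These genes are close in sequence, so reads could have been shared among them.

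Cd101, an inhibitory surface protein of resident T cells, had 353, 177 and 317 counts in ILC1 and 0, 0 and 1 in NK cells, a ratio of 891-fold (95% interval 159.6 to 35249) with an adjusted p of 0.00568, or 0.0522 with the mouse block. Cd96, which binds the same CD155 ligand as CD226, was at 1937, 1994 and 2520.5 CPM in ILC1 and 1093, 876 and 1092 CPM in NK cells (log2 fold change 1.08, SE 0.16, adjusted p = 0.0131). Its groups did not overlap. Against this direction, Cd300lf, which recognizes phospholipids, was at 207, 212 and 52.5 CPM in NK cells and 0, 4.17 and 0.543 CPM in ILC1 (adjusted p = 0.048, or 0.134 with the mouse block). Cd72 and Cd274, the gene of PD-L1, were not called, with log2 fold changes of -0.09 and 0.16.

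Activating and costimulatory receptors were called higher in ILC1 in 4 of 16 tested members and lower in 2 (2.31% and 1.24% of all genes). Cd7, an immunoglobulin-family receptor of early lymphocytes, was at 24439, 25094 and 27996 CPM in ILC1 and 2539, 2757 and 3398 CPM in NK cells, 8.92-fold apart (adjusted p = 5.59e-05). Cd160, which binds HVEM and class I molecules, was at 5565, 5376 and 6134 CPM in ILC1 and 544, 645 and 414 CPM in NK cells (log2 fold change 3.41, SE 0.19, adjusted p = 1.18e-04). Cd226, the activating receptor DNAM-1, was at 3503, 3153 and 3182 CPM against 544, 557 and 478 CPM, and the log2 fold change of 2.64 (SE 0.13) had an adjusted p of 6.53e-05. Thus DNAM-1 and CD96, which share a ligand and act in opposite ways, were both higher in ILC1, the activating one by 6.23-fold and the inhibitory one by 2.11-fold.

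Cd40lg, the CD40 ligand that licenses antigen-presenting cells, was counted only in ILC1, with 147, 211 and 101 counts and 0 in all NK libraries. ILC1 thus held at least 161-fold more, taking 3 counts over the NK group as the floor (adjusted p = 0.0202, or 0.217 with the mouse block). The members called lower in ILC1 were Cd2 and Cd247. Cd2, an adhesion receptor for CD48, was at 4682, 4196 and 2860.0 CPM in NK cells and 1810.3, 2027 and 1957 CPM in ILC1, a log2 fold change of -1.02 (SE 0.19, adjusted p = 0.0288, or 0.113 with the mouse block). Cd48, Cd244 (the receptor 2B4) and Cd69 (an early activation and residency marker) were not called: Cd69 was at 1814, 1807 and 2185 CPM in ILC1 and 869, 1429 and 1302 CPM in NK cells, with no overlap but an adjusted p of 0.148.

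The CD3 chains, which carry signals from the T cell receptor and of which the ζ chain also serves NK receptors, went in opposite directions. Of 7 tested genes of the CD3 and T-lineage list 3 were called higher and 1 lower in ILC1 (2.31% and 1.24% of all genes). Cd3g was at 6517, 6849.7 and 7203 CPM in ILC1 and 64.1, 119.6 and 104 CPM in NK cells (log2 fold change 6.16, SE 0.27, adjusted p = 5.59e-05), and the ILC1 values lay within a narrow range. Cd3d was at 390.1, 1062 and 379.8 CPM against 59.2, 83.0 and 39.8 CPM, and Cd3e at 247, 534 and 143 CPM against 8.95, 18.3 and 5.89 CPM. Their log2 fold changes were 3.33 (SE 0.53) and 4.80 (SE 0.73), with adjusted p-values of 0.0152 and 0.0131. In both genes the ILC1 library of mouse 26 was the highest. In both the call was lost without it, as it was without ILC1 library 25 or NK library 25. Both stayed called with the mouse block (adjusted p = 0.0262 for each), and their groups did not overlap. Cd247, the ζ chain that couples CD16 and NKp46 to the cell, was at 1743, 1744 and 1842 CPM in NK cells and 616, 745 and 770.0 CPM in ILC1, a log2 fold change of -1.32 (SE 0.14, adjusted p = 0.00372).

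Of other T cell markers, Cd5 and Cd6 had more counts in every ILC1 library than in any NK library, whereas Cd28 did not. Cd28 had 989, 1099 and 871 counts in ILC1 and 1094, 1462 and 733 in NK cells. Cd8a and Cd8b1 were at 0 in all 6 libraries, which at 3 counts allows at most 0.535 CPM over the ILC1 group and 0.508 CPM over the NK group. Cd4 had 66, 189 and 0 counts in the ILC1 libraries and 0, 8 and 0 in the NK libraries. Cd6, a receptor of T cells, had 43, 396 and 19 counts in ILC1 and 0, 10 and 0 in NK cells and was not called (adjusted p = 0.257), and Cd5, a brake on T cell receptor signals, had 76, 178 and 40 and 6, 7 and 0 counts. The whole T cell list of 10 genes, in which Cd3g held most of the counts, summed to 8058 to 9649 CPM in ILC1 and 542 to 1065 CPM in NK cells. The ILC1 library of mouse 26 was the highest in Cd3d, Cd3e, Cd4, Cd5 and Cd6, whereas its Cd3g level was in the middle of the other ILC1 libraries and its Cd28 level differed little from theirs. The part of T cells in these levels was not tested. The sort removed cells with surface CD3 or CD8α.

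**Figure D3:**
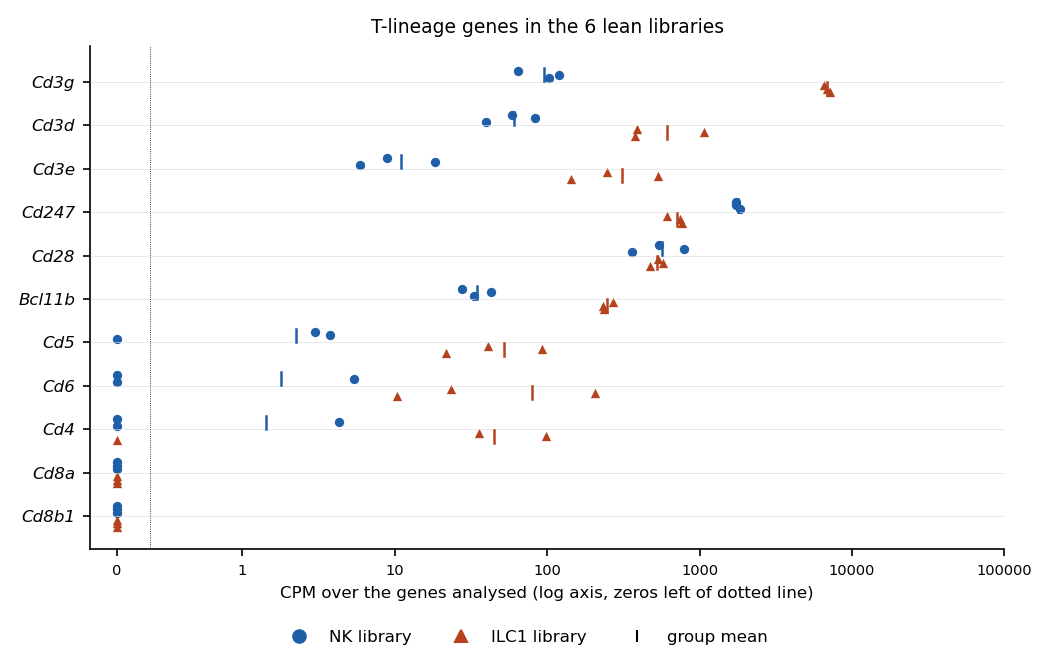
Points are the 6 lean libraries (circles NK, triangles ILC1) for 11 T-lineage genes, on a log axis of CPM over the genes analysed, with group means as bars and zeros left of the dotted line. Cd3g is tight among the ILC1 libraries, Cd3d, Cd3e, Cd4, Cd5 and Cd6 spread with mouse 26 on top, Cd247 is higher in NK cells, and Cd8a and Cd8b1 are at 0 throughout.

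Of 27 tested lymphocyte transcription factors 1 was called, a share of 3.7% that is near the 3.55% of all genes. Bcl11b, which guards T cell and ILC2 identity, was at 269, 233 and 237 CPM in ILC1 and 27.8, 42.6 and 33.4 CPM in NK cells, a log2 fold change of 2.83 (SE 0.40, adjusted p = 0.00945, or 0.0932 with the mouse block). Bcl11b is also in the T cell list, and the part of T cells in its level was not tested. Bhlhe40, a repressor of IL-10 in lymphocytes, was at 4909, 5255 and 3225 CPM in NK cells and 3119, 3560.0 and 2791 CPM in ILC1 (log2 fold change -0.50, SE 0.20, adjusted p = 0.287). The stress factor Atf4 gave 0.07 and the cAMP-responsive Creb1 -0.42 on the log2 scale, neither called.

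Eomes, and T-bet in both cell types, belong to the T-box factors, which read a site whose core is TCACAC. The 250 bases before the RefSeq transcription starts (GRCm38.p6) were searched for this core on both strands. Of the 60 called genes with an entry, 7 of 38 higher in ILC1 held it (Adam19, Art2b, Bcl11b, Cd160, Cd200r2, Ckb and Cxcr3) and 1 of 22 lower in ILC1 (Arhgef18), against 175 of 1778 tested genes (9.84%) and 13.9% of the 27025 genes in the promoter table. The RUNX hexamer TGTGGT was found in 11 of 38 and 5 of 22, against 14.1% of the tested genes, and in 15.9% of all promoters. The AP-1 site TGACTCA was found in 3 of 38 and 3 of 22 (3.54% of the tested genes, 5.16% of all), and the E-box CACGTG in 4 and 3 (11.2%, 6.86%). The xenobiotic response element core GCGTG was found in 10 and 6 (50.2%, 30.9%), and the ZEB site CCACCTG in 3 and 2 (6.24%, 6.17%). These matches describe the letters of the windows and no binding. The windows of Cd160 and Cd200r2, receptors of ILC1, are shown with the core in capitals, beside that of the NK protease gene Cma1, which held no such core:
Cd160 (chr3:96829352-96829601, minus strand): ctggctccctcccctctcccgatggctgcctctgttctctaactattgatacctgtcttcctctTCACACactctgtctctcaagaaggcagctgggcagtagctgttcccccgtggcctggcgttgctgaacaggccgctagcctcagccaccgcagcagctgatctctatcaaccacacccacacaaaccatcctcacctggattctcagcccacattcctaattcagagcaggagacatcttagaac
Cd200r2 (chr16:44866847-44867096, plus strand): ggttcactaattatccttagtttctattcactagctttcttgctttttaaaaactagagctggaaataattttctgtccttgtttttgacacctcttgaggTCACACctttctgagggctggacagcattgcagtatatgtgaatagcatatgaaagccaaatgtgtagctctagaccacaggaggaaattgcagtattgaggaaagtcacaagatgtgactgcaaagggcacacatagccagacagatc
Cma1 (chr14:55944676-55944925, minus strand): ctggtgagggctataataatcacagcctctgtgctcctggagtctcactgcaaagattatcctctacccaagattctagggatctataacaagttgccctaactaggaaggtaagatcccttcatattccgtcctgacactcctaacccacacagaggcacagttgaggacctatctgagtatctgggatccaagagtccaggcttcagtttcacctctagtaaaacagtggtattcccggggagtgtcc

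Adhesion molecules and tetraspanins were called higher in ILC1 in 3 of 22 tested members and lower in 1 (2.31% and 1.24% of all genes). Cdh17 and Cdh1 encode cadherins, which join cells through homophilic contacts. Cdh17, the liver-intestine cadherin (chr4:11758147-11817895), was at 489, 587 and 655 CPM in ILC1 and 2.49, 2.69 and 1.47 CPM in NK cells (log2 fold change 7.99, SE 0.38, adjusted p = 5.59e-05). Cdh1, E-cadherin, the ligand of CD103 and KLRG1, had 250, 204 and 213 counts in ILC1 and 0 in every NK library, at least 234-fold more (adjusted p = 0.00952, or 0.16 with the mouse block). Cd63, a tetraspanin of lysosomes and secretory granules, was at 408, 316 and 409.7 CPM in ILC1 and 3.48, 4.31 and 0.982 CPM in NK cells, 127-fold apart (adjusted p = 0.00122).

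Cd63 also marks basophils and mast cells, and that list summed to 402 to 468 CPM in ILC1 and 11.9 to 50.1 CPM in NK cells, most of it Cd63 in ILC1. Its other genes, Cpa3, Ccr3 and Cd200r3, had 0 to 100 counts in any library; Cd200r3 had 55, 52 and 40 counts in ILC1 and 4, 0 and 0 in NK cells. Their part in the Cd63 level was not tested. Another tetraspanin, Cd9, went the other way, at 2886, 2969.7 and 2764 CPM in NK cells and 1077, 1014 and 1263 CPM in ILC1 (log2 fold change -1.36, SE 0.13, adjusted p = 0.00241). Cd82 was higher in ILC1 by less than the fold threshold, at 0.52 on the log2 scale (adjusted p = 0.048, or 0.125 with the mouse block), and Cd53 and Cd47 were not called, at -0.19 and -0.45.

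Metalloproteases of the ADAM family cut proteins off the cell surface. Of 10 tested ADAM and ADAMTS genes 2 were called higher and 1 lower in ILC1 (2.31% and 1.24% of all genes). Adam19 had 853, 612 and 284 counts in ILC1 and 1, 0 and 1 in NK cells, a ratio of 920.3-fold (95% interval 254 to 7605, adjusted p = 0.00163), with a 3-fold range among the ILC1 libraries. Adam8, a leukocyte sheddase, was at 219, 297 and 243 CPM in ILC1 and 0.994, 10.8 and 1.47 CPM in NK cells (log2 fold change 5.83, SE 0.99, adjusted p = 0.02, or 0.061 with the mouse block). Adamts14, which trims procollagen, was at 593, 640.2 and 599 CPM in NK cells and 161, 232 and 149 CPM in ILC1 (log2 fold change -1.76, SE 0.24, adjusted p = 0.00839). The widely used sheddases Adam10 and Adam17 were not called, at 0.59 and -0.92 on the log2 scale.

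Of 20 tested cathepsins and related proteases and inhibitors, 2 were called lower and 1 higher in ILC1 (1.24% and 2.31% of all genes). Cma1, a chymase known from mast cells (chr14:55941451-55944675), was at 4257, 3593 and 4863 CPM in NK cells and 18.9, 35.9 and 113 CPM in ILC1, a log2 fold change of -6.24 (SE 0.68, adjusted p = 0.00374). It was high in every NK library, and the ILC1 libraries spread about 6-fold below. The mast cell protease gene Cpa3 was low in both cell types, with 14 to 100 counts in NK cells and 25 to 86 in ILC1. Ctla2a, an inhibitor of cathepsins named for cytotoxic T cells, was at 1057, 1158 and 909 CPM in NK cells and 269, 323 and 405 CPM in ILC1 (log2 fold change -1.65, SE 0.21, adjusted p = 0.00695). It has a near copy, Ctla2b, with which reads could be shared.

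Ctsb, cathepsin B, the member higher in ILC1, was at 2525, 2133 and 2423 CPM in ILC1 and 1139, 1031 and 1286 CPM in NK cells (log2 fold change 1.03, SE 0.14, adjusted p = 0.00839). The macrophage list summed to 114 to 256 CPM in ILC1 and 88.4 to 594 CPM in NK cells, and its part in the Ctsb level was not tested. Ctsa, a protective carboxypeptidase of lysosomes, passed the test at 0.71 on the log2 scale but not the fold threshold (adjusted p = 0.02, or 0.0847 with the mouse block). Ctsw, the cathepsin of cytotoxic lymphocytes, was at 8059.9, 7031 and 7014 CPM in ILC1 and 5851, 4875 and 7257 CPM in NK cells, with overlapping groups, and Ctsd gave -0.48 on the log2 scale.

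Annexins bind membranes in the presence of calcium, and 3 of 9 tested were called lower in ILC1, against 1.24% of all genes, with none called higher and a list median of -0.97. Anxa2, which organizes membrane and actin and serves as a plasminogen receptor, was at 9852, 9856 and 11869.8 CPM in NK cells and 3346, 3295 and 3686 CPM in ILC1, a log2 fold change of -1.61 (SE 0.12, adjusted p = 6.70e-04). Anxa1, the glucocorticoid-induced mediator of resolution, was at 3703, 3131 and 2435 CPM against 1281, 1176 and 1251 CPM (log2 fold change -1.32, SE 0.17, adjusted p = 0.00744). Anxa8 had 138, 141 and 184 counts in NK cells and 0 in every ILC1 library, at least 147-fold more in NK cells (adjusted p = 0.02, or 0.224 with the mouse block). Anxa6 was lower in ILC1 just under the fold threshold, at -0.97 (SE 0.14, adjusted p = 0.00945), and Anxa5 and Anxa7 were not called, at 0.03 and -0.07.

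Survival and death genes were called higher in ILC1 in 3 of 37 tested members, all inhibitors of apoptosis, against 2.31% of all genes. The list median was 0.06 on the log2 scale, against 0.04 over all genes. Bcl2, which guards mitochondria, was at 2582, 2055 and 1943 CPM in ILC1 and 1022, 1179 and 1088 CPM in NK cells, and its fold change of 2.0002 lay on the fold threshold (adjusted p = 0.0131). Bcl2a1b, 1 of several near-identical A1 genes, was at 624, 625 and 602 CPM against 186, 170.3 and 271 CPM, and Bcl2a1d at 135, 166 and 212 CPM against 24.4, 25.9 and 24.0 CPM. Their log2 fold changes were 1.56 (SE 0.24) and 2.79 (SE 0.49) (adjusted p = 0.0131 and 0.0217), and reads could be divided between these copies. None of the 3 kept its call with the mouse block (adjusted p = 0.0839, 0.0732 and 0.147). The death effectors Casp8, Casp1 and Bid were not called, at 0.12, 0.10 and -0.73 on the log2 scale.

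Brakes on cytokine signals and ubiquitin ligases were called higher in ILC1 in 2 of 13 tested members, against 2.31% of all genes. Asb2, the substrate receptor of a ubiquitin ligase that degrades filamins, was at 1743, 1825 and 1556 CPM in ILC1 and 32.3, 73.8 and 8.34 CPM in NK cells (log2 fold change 5.49, SE 0.71, adjusted p = 0.00743). Cish, a checkpoint of IL-15 and IL-2 signals, was at 411, 288 and 325 CPM in ILC1 and 27.3, 42.6 and 85.4 CPM in NK cells (log2 fold change 2.72, SE 0.49, adjusted p = 0.0249, or 0.113 with the mouse block). The scaffold Cul1, the deubiquitinase Cyld and the ligase Arih2 were not called, at -0.17, 0.03 and -0.50.

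Enzymes that consume NAD or modify proteins with ADP-ribose were called higher in ILC1 in 2 of 3 tested members, against 2.31% of all genes. Cd38, the NAD glycohydrolase of the cell surface, was at 1788, 1497 and 2007 CPM in ILC1 and 275, 368 and 455 CPM in NK cells (log2 fold change 2.27, SE 0.23, adjusted p = 0.00267). Art2b, which ADP-ribosylates the P2X7 receptor of T cells, was at 248, 336 and 309 CPM against 6.46, 4.31 and 0.982 CPM (log2 fold change 6.23, SE 0.72, adjusted p = 0.00479). Its neighbour Art2a-ps, a near copy annotated as a polymorphic pseudogene, was at 70.3, 63.0 and 33.1 CPM against 2.49, 2.16 and 0 CPM and was not called (adjusted p = 0.117). Ada, which breaks down adenosine, was the only called gene of 25 tested in the adrenergic, adenosine and cAMP list. This share of 4% is near the 3.55% of all genes. Ada was at 413, 476 and 319.6 CPM in ILC1 and 88.0, 63.6 and 127 CPM in NK cells (log2 fold change 2.12, SE 0.35, adjusted p = 0.0199, or 0.125 with the mouse block).

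Of 39 tested actin cytoskeleton genes 4 were called higher and 1 lower in ILC1 (2.31% and 1.24% of all genes). With the mouse block, 0 of these 5 calls held. The crosslinkers Actn1 and Actn2 had 120, 212 and 40 and 34, 89 and 145 counts in ILC1 and 1 count each over all NK libraries, with adjusted p-values of 0.0325 and 0.0483. Abi3, a regulator of branched actin, was at 497, 439.7 and 348 CPM in ILC1 and 76.1, 109 and 109 CPM in NK cells (log2 fold change 2.13, SE 0.29, adjusted p = 0.00876). Coro2a gave 1.01 (SE 0.17, adjusted p = 0.02), and Cobll1, the member lower in ILC1, -2.79 (SE 0.54, adjusted p = 0.0325). Main cytoskeletal genes such as Actb, Arhgdib and Cdc42 were not called, at -0.29, -0.40 and -0.55.

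Growth factors and cytokine receptors held 1 call in 13 tested genes, against 3.55% of all genes. Angpt1, the ligand of the endothelial receptor Tie2, was at 223, 188 and 59.9 CPM in NK cells and 0, 2.08 and 0 CPM in ILC1 (log2 fold change -7.67, SE 1.45, adjusted p = 0.0288, or 0.107 with the mouse block). The NK libraries spread about 4-fold, with mouse 27 the lowest, yet all lay above the ILC1 libraries.

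In fatty acid and cholesterol metabolism 1 of 41 tested genes was called in each direction, together 4.88% against 3.55% of all genes. Crot, which moves medium-chain acyl groups out of peroxisomes, was at 1855, 2026 and 1752 CPM in ILC1 and 796, 871 and 452 CPM in NK cells (log2 fold change 1.41, SE 0.25, adjusted p = 0.0231, or 0.0522 with the mouse block). Acss2, which makes acetyl-CoA from acetate, was at 639, 511 and 794 CPM in NK cells and 190.4, 163 and 193 CPM in ILC1 (log2 fold change -1.83, SE 0.23, adjusted p = 0.00705). Abcg1, a cholesterol exporter, and Acsl5 were not called, at 0.34 and -0.42. Acot7, an acyl-CoA thioesterase, was higher in each ILC1 library than in any NK library at 0.78 on the log2 scale, with an adjusted p of 0.0872.

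In several broad programmes no gene passed both thresholds. No gene was called among 39 of mitochondrial ATP synthase and cytochromes (median 0.04), 24 of calcium signalling (0.01), 15 of interferon response and antigen presentation (0.27), 10 of the circadian clock (-0.31) and 62 of the cell cycle (-0.55). For the cell cycle the median was -0.60 without NK library 27, and the D-type cyclins Ccnd2 and Ccnd3, which bring lymphocytes out of quiescence, gave 0.14 (SE 0.15) and 0.05 (SE 0.19). The inhibitor Cdkn2d was lower in ILC1 by less than the fold threshold (-0.88, adjusted p = 0.0325), as was the calcium sensor Calm2 (-0.83, adjusted p = 0.0248); with the mouse block the adjusted p-values were 0.125 and 0.116. B2m, the light chain of class I molecules, was at 33641, 37191 and 39245 CPM in ILC1 and 23633, 23968 and 28079.8 CPM in NK cells, separated in the libraries with a log2 fold change of 0.54 (SE 0.12) and an adjusted p of 0.0534. Without NK library 27, 2 of the 15 interferon and antigen presentation genes were called higher and 1 lower, and 2 of the 24 calcium signalling genes higher. The lysosomal list held 2 calls in 39 genes (5.13%, against 3.55% of all genes). These were Cd63 and Ctsb, which other lists also hold, and no subunit of the proton pump was called.

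**Figure D4:**
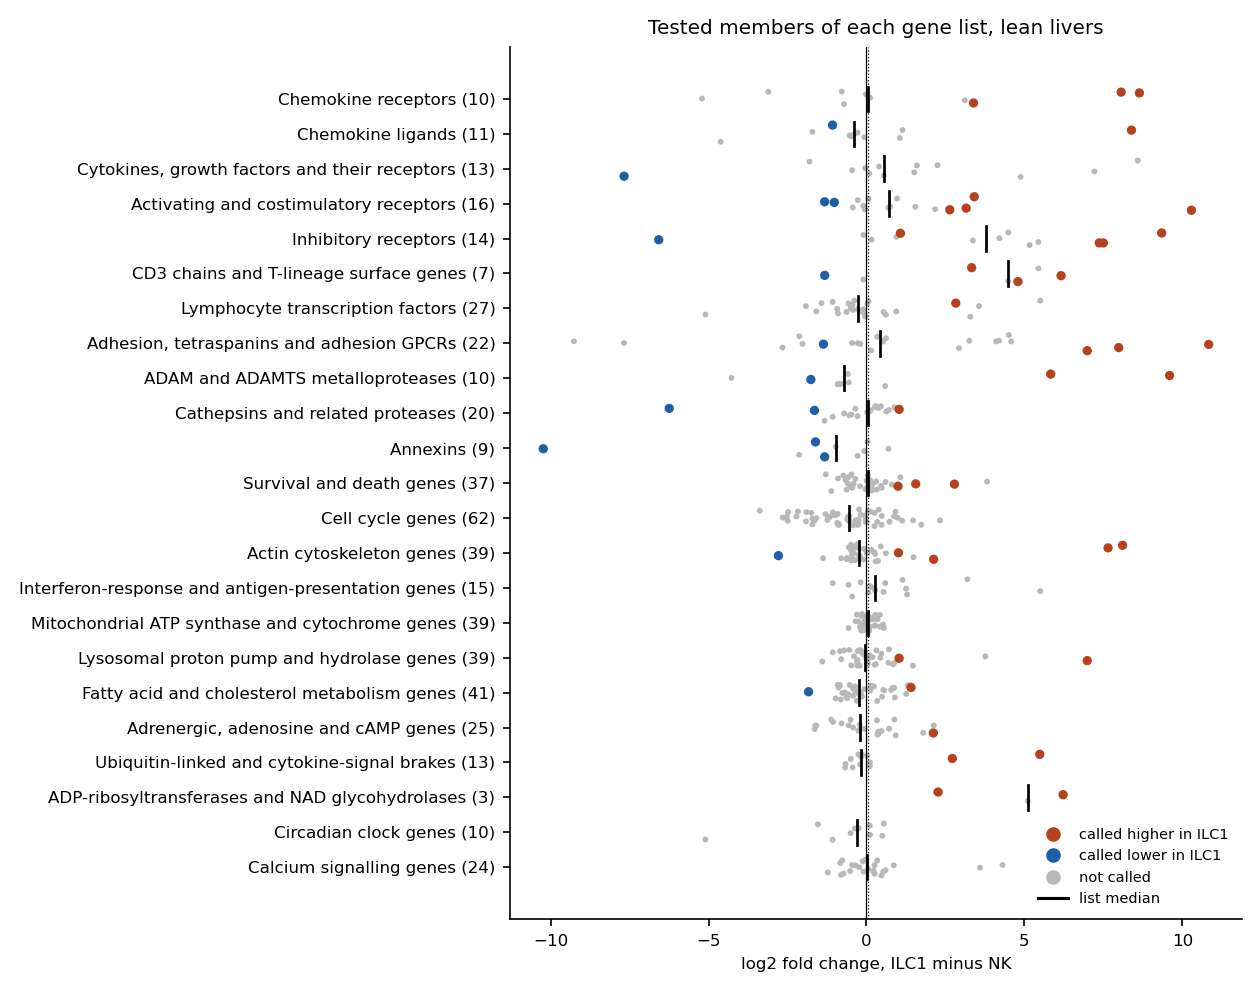
Each point is a tested member of a gene list, with its log2 fold change, ILC1 minus NK, on the x axis; red and blue points were called higher and lower in ILC1, grey points were not called, black bars are list medians, the dotted line is the median over all genes (0.04), and the number of tested members stands after each name. Surface receptor lists spread widely to the right with called genes, the annexin median lies to the left, and mitochondrial genes cluster around 0.

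Several genes with large changes fell in no list. Higher in ILC1, Atp8a2, a phospholipid flippase, was at 611, 482 and 339 CPM in ILC1 and 1.49, 0 and 1.47 CPM in NK cells, and the little-studied Ccdc136 at 471, 399 and 576 CPM against 0, 0 and 2.45 CPM. Their log2 fold changes were 8.80 (SE 0.75) and 9.06 (SE 0.99) (adjusted p = 0.00118 and 0.00374). Apol7b, a member of the apolipoprotein L family with close copies, had 295, 291 and 452 counts in ILC1 and 0, 1 and 2 in NK cells, a ratio of 364-fold (95% interval 124 to 1769). The uncharacterized 1810011H11Rik was at 384, 322 and 673 CPM against 0, 4.85 and 2.45 CPM (adjusted p = 0.00705, or 0.057 with the mouse block). Ccdc80, a matrix protein, had 125, 93 and 155 counts in ILC1 against 1, 0 and 1 (adjusted p = 0.02, or 0.118 with the mouse block).

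Higher in NK cells, As3mt, the arsenic methyltransferase, was at 1406, 1288 and 1057 CPM in NK cells and 56.3, 32.3 and 42.9 CPM in ILC1, a log2 fold change of -4.83 (SE 0.28, adjusted p = 1.18e-04), lower in ILC1 in all 6 fits that left out 1 library. Nearby on chromosome 19, the steroid hydroxylase gene Cyp17a1, had 183, 135 and 358 counts in NK cells and 0, 2 and 0 in ILC1, a ratio of 321-fold (95% interval 88.6 to 2657, adjusted p = 0.02, or 0.134 with the mouse block). The genes occupy chr19:46707458-46741099 and chr19:46667165-46673172 and both lay on the NK side. Atp1b3, a sodium pump subunit, was at 3475, 2966 and 3273 CPM against 823, 708 and 1196 CPM (log2 fold change -1.83, SE 0.21, adjusted p = 0.00479), and Add3, an adducin of the membrane skeleton, at 2231, 1801 and 1638 CPM against 783, 717 and 651 CPM (log2 fold change -1.40, SE 0.17, adjusted p = 0.00492).

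The chymosin gene Cym was at 556, 515 and 382 CPM in NK cells and 18.4, 1.56 and 21.2 CPM in ILC1, and Cdc20b at 425, 467 and 411 CPM against 9.2, 3.13 and 0 CPM. Both passed the test (adjusted p = 0.0164 and 0.0131) but not with the mouse block (0.1 and 0.0847). The guanine exchange factor gene Arhgef18 had a log2 fold change of -1.91 (SE 0.38, adjusted p = 0.0367, or 0.161 with the mouse block). The less-studied 2010012O05Rik was at 1044, 1208 and 966 CPM in NK cells and 34.1, 72.9 and 98.8 CPM in ILC1, and AB124611 at 555, 432 and 746 CPM against 50.9, 74.5 and 85.2 CPM, with adjusted p-values of 0.00267 and 0.00374.

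Cd163, the haemoglobin scavenger receptor of macrophages, was called lower in ILC1 with 157, 72 and 786 counts in the NK libraries, most of them in mouse 27, and 0, 2 and 0 in ILC1 (adjusted p = 0.026, 0.0185 without that library and 0.155 with the mouse block). Of the other macrophage markers, Adgre1, Cd5l, Csf1r and Cd14 were at 0 in all NK libraries and had up to 72 counts in ILC1, and C1qb had 179, 101 and 0 counts in ILC1 and 28, 0 and 1 in NK cells. The list of 12 summed to 114 to 256 CPM in ILC1 and 88.4 to 594 CPM in NK cells, highest in NK library 27. That library was also the highest in Cd68 (423 counts, against 45 to 87 in the other 5), Alb and Azgp1, and their part in the Cd163 call was not tested.

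Beside these, Ckb, brain-type creatine kinase, was at 953, 1013 and 782 CPM in ILC1 and 1.99, 24.2 and 2.45 CPM in NK cells (log2 fold change 6.59, SE 0.94, adjusted p = 0.00959). Aqp9, a channel for water and glycerol, was at 429, 379 and 455 CPM against 0.497, 16.7 and 1.47 CPM (log2 fold change 6.08, SE 1.13, adjusted p = 0.0274, or 0.102 with the mouse block). The apolipoprotein gene Apoe was at 377, 217 and 303 CPM against 55.2, 62.5 and 70.7 CPM (log2 fold change 2.25, SE 0.36, adjusted p = 0.0167, or 0.113 with the mouse block). Hepatocytes make both Aqp9 and Apoe, and the hepatocyte list summed to 109 to 142 CPM in ILC1 and 25.8 to 214 CPM in NK cells. The macrophage list summed to 114 to 256 CPM in ILC1 and 88.4 to 594 CPM in NK cells. Of that list, C1qa had 34, 20 and 23 counts in ILC1 and 1, 1 and 0 in NK cells, whereas Cd163 went the other way. In obese livers the library highest in Apoe was also the highest in the macrophage list. The part of either list in these levels was not tested. Further called genes were 4632428N05Rik, Abcb9, Aim1l, Amica1, Apol7e, Arhgap9, Ccdc6, Chn2, Clnk and Col15a1 on the ILC1 side and 5830416P10Rik, Aim1, Arap2, Atp1b1 and Ccdc88c on the NK side. Of these, Abcb9, Amica1, Arhgap9, Aim1 and Atp1b1 kept the call with the mouse block.

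Many of the calls were lost when 1 library was left out, which also leaves the test fewer libraries. Of the 64 called genes fixed by the rule for named genes, 25 stayed called in every fit without 1 library, with adjusted p-values up to 0.0484. Without ILC1 library 25, Cxcr3, Asb2, Cd101, 1810011H11Rik, Acss2 and Adamts14 lost the call at 0.0505 to 0.0621, and no other single library ended these. Abi3 and Anxa1 lost it without ILC1 library 25 or 26 (highest adjusted p 0.0686 and 0.0562), and Cdh1 when any single ILC1 library was left out (0.099). Cd3d and Cd3e lost it without ILC1 library 25, ILC1 library 26 or NK library 25 (highest adjusted p 0.0773 and 0.08). Ccl3 lost it without ILC1 library 25 or 26 or NK library 26 (0.064), Ctsb without ILC1 library 25 or NK library 25 or 26 (0.0569), and Cdc20b without ILC1 library 26 or NK library 25 or 26 (0.0902).

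Adam8, Bcl11b, Cd163 and Crot lost the call when any single ILC1 library or NK library 25 was left out (highest adjusted p 0.0835 to 0.136). Bcl2 and Cobll1 lost it without ILC1 library 25 or 26 or NK library 25 or 26, and Angpt1 and Cym without ILC1 library 25 or 27 or NK library 25 or 26, with a highest adjusted p of 0.0776 to 0.148. Another 16 genes stayed called in 1 of the 6 fits, the one without NK library 27: Actn1, Actn2, Ada, Anxa8, Arhgef18, Bcl2a1b, Bcl2a1d, Ccdc80, Ccl1, Ccr8, Cd2, Cd300lf, Cd40lg, Cd96, Cish and Cyp17a1, with a highest adjusted p of 0.0554 to 0.198. Coro2a, just over the fold threshold with all libraries, was called in 0 of the 6 fits (highest adjusted p 0.1). All 83 called genes kept their direction in each of the 6 fits.

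The same comparison was made in the 3 obese mice, whose libraries had no part in the calls. Their ILC1 library of mouse 26 stood apart. Apoe was at 475, 82483 and 2140.1 CPM in the obese ILC1 libraries of mice 25, 26 and 27, Ctsb at 2704, 27140.0 and 2635 CPM, and Cd7 at 26059, 2675 and 17099 CPM. The macrophage list summed to 25145 CPM in that library, against 944 and 1108 CPM in the other obese ILC1 libraries and 119 to 174 CPM in the obese NK libraries. Across genes its log2 CPM correlated with the other obese ILC1 libraries at r = 0.592 and 0.709, against 0.735 between those.

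With all 6 obese libraries no gene was called of 2447 tested (0%), with 173 higher and 100 lower at an unadjusted p under 0.05 by edgeR, while DESeq2 called 106 and 64. Without obese ILC1 library 26, edgeR called 17 higher and 5 lower, and without obese ILC1 library 25 it called 2 and 4. Of the 54 genes called higher in lean ILC1, 51 were tested in obese livers, 48 had the same direction and 33 had no overlap between the groups, against 24.4% of all genes tested in obese livers. Their median log2 fold change was 3.39 in lean and 2.55 in obese livers. Of the 29 called lower, all were tested, 27 had the same direction and 22 had no overlap, with medians of -1.83 and -1.26. Without obese ILC1 library 26, 50 of 51 and 29 of 29 had the same direction, with obese medians of 2.31 and -1.85. The genes were selected in the lean libraries, so a smaller obese median says nothing of the diet.

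Cxcr6 had a log2 fold change of 8.06 in lean and 5.25 in obese livers, Cd200r2 of 7.50 and 5.94, and Cma1 of -6.24 and -3.78. The cadherin Cdh17 was at 7.99 and 1.65, or 0.29 in obese livers without ILC1 library 26. With all libraries, Cd163, Cyp17a1, Ccdc6, Clnk and Coro2a had the opposite sign in obese livers. For Cd163 and Cyp17a1 this rested on 1 library, since the obese ILC1 libraries held 0, 319 and 0 counts of Cd163 and 0, 432 and 0 of Cyp17a1, and without ILC1 library 26 both lay on the NK side. Ccdc6, Clnk and Coro2a, called in lean livers with log2 fold changes of 1.16, 1.04 and 1.01, were then at -0.06, 0.20 and 0.08. The difference between lean and obese livers was tested in 1 model of all 12 libraries and called 0 of 2606 genes by edgeR (155 at an unadjusted p under 0.05) and 23 of 3623 by DESeq2.

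**Figure D5:**
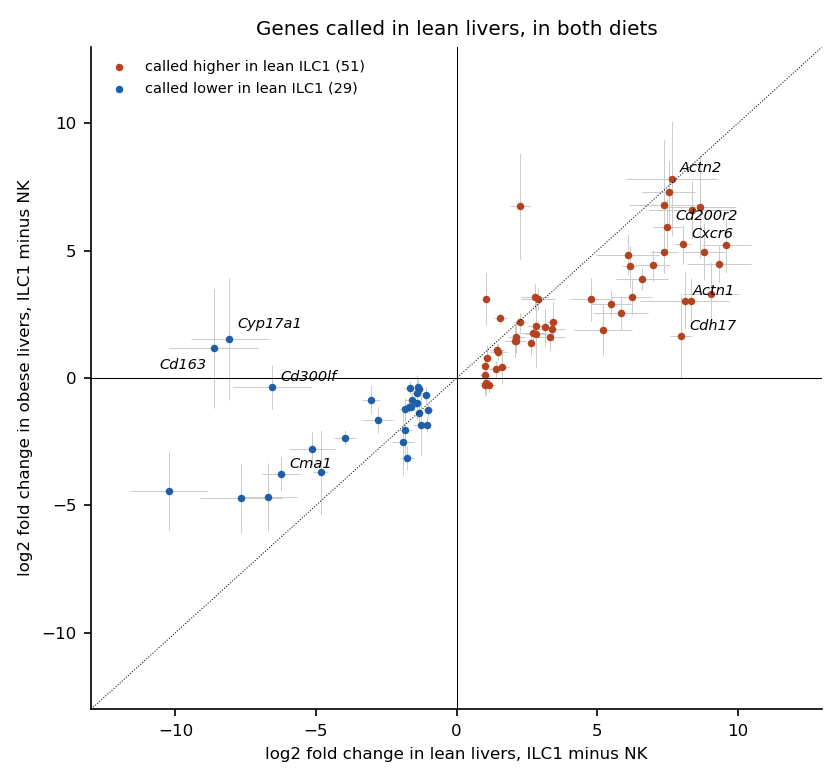
Points are the 80 genes called in lean livers that were also tested in obese livers, with the log2 fold change, ILC1 minus NK, in lean mice on the x axis and in obese mice on the y axis; grey bars are standard errors and the dotted line marks equal values. In 75 of the 80 the sign is the same, and Cd163 and Cyp17a1 lie above 0 in obese livers with wide errors and through the counts of obese ILC1 library 26 alone.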

How the data were processed

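RNA from ILC1 and NK cells of 3 lean mice gave the 6 libraries compared. The authors deposited 1 table with raw read counts per gene, not normalized, and a score (the counts divided by a factor for each library and rounded), which was not used. The submitters' processing notes name bcl2fastq 2.19, Trimmomatic 0.36.5, STAR 2.5.2b, featureCounts 1.6.0.2 and build mm10; the annotation and strand setting are not given in the sources used here. The complete rows (5545 genes, 1 incomplete row left out) were fitted with edgeR 4.0.16 in R 4.3.3 (TMM, filterByExpr, glmQLFit, glmQLFTest, 2 groups, no covariate) and Benjamini-Hochberg adjustment over all genes tested; the thresholds, an adjusted p of 0.05 and a fold change of 2, follow the study's. The SE is |log2 fold change| over the square root of its F. The script was tested on simulated counts before use. ILC1 and NK libraries that share a number share a mouse (the titles), and their deviations from the group means correlated at r = -0.00980, 0.111 and 0.0713; a fit with the mouse as a block was the alternative.

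The gene lists and the genes in them were chosen with earlier results of these data known. Named genes are, in each direction, the 15 called with the largest change at 50 CPM or more, the called genes with the highest CPM, and called and highest uncalled members of each function list, beside markers; Ckb, Aqp9, Apoe and the further called genes, Cd4, Cd8a, Cd8b1 and other marker genes given as counts, and the promoters shown, were chosen after their values were seen. Against a group at 0, a fold is a bound from 3 counts over the 3 libraries; with 1 to 3 counts in a group, the ratio has an exact (Clopper-Pearson) 95% interval. Both cover counting error only. Totals of 1779223 to 2136211 counts cover the genes analysed and understate the depth. Alternatives were DESeq2 1.42.0, a likelihood-ratio test in edgeR, size factors of DESeq2, other filters and thresholds, all 12 libraries in 1 model, the block, and leaving out each library (in obese livers alone, added after the data were seen). Gene positions are from GENCODE for GRCm38 (138 of 146 named or called symbols matched) and promoters from RefSeq. A few items are not reported here.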

Additional observations from a re-analysis of the deposited data

Results flagged for a closer look

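Cox4i1, a subunit of cytochrome c oxidase, moved in opposite directions in lean and obese livers: in each lean mouse ILC1 held less than NK cells, and in each obese mouse more. The log2 fold changes were -0.35 and 0.14, a difference of -0.48, lean minus obese, between the 2 diets. Without obese ILC1 library 26 the obese value was 0.17. In lean livers it was at 2715, 2754 and 3529 CPM in NK cells and 2520.2, 2251 and 2313 CPM in ILC1. The gene was singled out by its directions alone; the test of the difference across all genes gave an adjusted p of 0.793.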

How the results depend on the processing

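The counts of 54 genes higher and 29 lower moved most with the test and with single libraries. DESeq2 called 116 and 85, the likelihood-ratio test 96 and 60, and the replicate block for the mouse 25 and 16; DESeq2 and the likelihood-ratio test kept all 83, the block 41 of them. Leaving out 1 library gave 16 to 95 higher and 11 to 43 lower: 95 and 43 without NK library 27, 26 and 16 without NK library 25, 32 and 19 without NK library 26, and 16 and 11, 23 and 17, and 26 and 22 without ILC1 libraries 25, 26 and 27. The cause was not tested. The other alternatives (DESeq2's size factors, no filter, 10 counts in every library, all 12 libraries, no fold threshold, a test against 1.5-fold) stayed within 1.5 times, at 39 to 59 higher and 21 to 39 lower. The genes behind these totals differed. The model of all 12 libraries kept 36 of the 54 and 20 of the 29, and lost Ctsb, Apoe, Bcl11b, Cd96 and Bcl2 among others. The filter of 10 counts in every library kept 33 and 20. All 83 genes kept their direction in each alternative that gave a value (55 of 55 with 10 counts in every library). Of 64 named called genes, 25 were called in all 6 fits without 1 library and with the block, led by Cxcr6, Cd7, Cd3g, Cd226, Cd160 and Cdh17 on the ILC1 side and As3mt, Anxa2, Cd9, Cd247 and Cma1 on the NK side. For the difference between lean and obese livers DESeq2 called 23 genes against 0, and the fits without 1 library 0 to 1. In obese livers alone, leaving out 1 library, chosen after seeing the data, gave 0 to 17 higher and 0 to 5 lower, most without ILC1 library 26. With 3 libraries a group, calls lost without 1 library included genes near 0 in one cell type, such as Anxa8 and Cd40lg. They also included genes well counted in both cell types, such as Anxa1 and Cd2.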

Other observations

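Without NK library 27, 42 further genes were called higher and 14 further lower in ILC1; the ones named here were chosen after their values were seen. Adgrg5 and Adgrg3, adhesion G protein-coupled receptors, were at 843, 1098 and 681 CPM and 151, 189 and 104 CPM in ILC1, against 55.2, 85.7 and 1.96 CPM and 11.9, 5.93 and 0.491 CPM in NK cells. Their adjusted p-values were 0.0749 and 0.0706 with all 6 libraries and 6.48e-04 and 0.00408 without NK library 27. Cd74, the class II invariant chain, was at 1078, 726 and 449 CPM in ILC1 and 148, 94.3 and 3.44 CPM in NK cells, with adjusted p-values of 0.181 and 0.00839, and Camk4, a calcium-dependent kinase, at 132, 118 and 198 CPM and 8.45, 14.0 and 0 CPM (0.15 and 0.00381). In all 4 genes NK library 27 was the lowest NK library and the other NK libraries lay below every ILC1 library. The B cell marker Cd79a and the macrophage marker C1qa also had more counts in ILC1, whereas Bank1 and Cd163 went the other way. The part of such cells in the Cd74 level was not tested. On the NK side, Cmah, which makes a sialic acid, was at 368, 302 and 131 CPM in NK cells and 0, 10.9 and 0 CPM in ILC1 (0.0922 and 0.0134), and Cd55, an inhibitor of complement, at 304, 359 and 133 CPM and 50.3, 8.86 and 26.0 CPM (0.0649 and 0.013).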
